A study of Mus musculus with 8 samples.

Results

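The metallothionein genes Mt1, Mt2 and Mt3 were followed through the cell types of the mouse hippocampus. They were taken by symbol and are 3 of the 17143 genes of the deposited single-cell table. Metallothioneins are small, cysteine-rich proteins that bind zinc and copper and can bind toxic metals such as cadmium and lead. Mt1 and Mt2 are switched on by the zinc-sensing transcription factor MTF1, by glucocorticoids and by oxidative stress, whereas Mt3 is mainly a nervous system gene whose protein was first described as a growth inhibitory factor for neurons. In the brain, all of them are known as genes of astrocytes.

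The study asked what developmental lead exposure does to hippocampal cells. The exposed group (Pb) held 4 mice, 2 females and 2 males, whose dams drank water with 32 ppm Pb-acetate from 2 weeks before mating, through gestation and lactation. The control group (Ctl) held 4 mice, 2 females and 2 males, whose dams were randomized to the control water; the sample labels call this group control diet. All were wildtype (a/a) offspring of a/a parents, drank Pb-free water after weaning and were 5 months old, so the contrast is with an exposure that had ended months before. The labels keep 1 male and 1 female per litter but tie no mouse to a litter, so p-values treat as independent mice that may share a dam. Each mouse has a short name, such as Pb F1 for the first exposed female and Ctl M2 for the second control male.

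Hippocampi were digested to single cells in a warmed dissociator, stored frozen, and after thawing put through a 10x Chromium, which tags each captured transcript with a unique molecular identifier (UMI). A level is given here as CPM, counts per 1000000: the UMIs of a gene out of 1000000 UMIs of all genes in the cells of 1 class of 1 mouse. Since a molecule is counted once whatever its length, CPM of the 3 genes can be set side by side. After filtering, 5175 cells were kept (3555 Pb and 1620 Ctl), 211 to 1157 per mouse, with 1749079 to 8508064 UMIs per mouse. They fell into 23 clusters and, by marker genes, into 15 named classes and 2 unnamed clusters. Xist and the Y-linked genes followed the labelled sex in all 8 mice.

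The 3 genes sit in a row on chromosome 8 of the GRCm38 build, on the plus strand, each with 3 exons in GENCODE. Mt3 (94152607 to 94154146) is followed by Mt2 (94172664 to 94173568) after 18517 bases and then by Mt1 (94179082 to 94180327) after 5513 bases. An antisense gene, Gm45774, overlaps Mt2 and has no row in the table. The strand setting of the counting is not known from the sources used here, so Mt2 could hold reads of it. Over aligned transcripts, Mt1 and Mt2 shared 76.4% of bases, Mt1 and Mt3 77.0%, and Mt2 and Mt3 72.1%. In the last 100 bases, the longest shared runs were 10, 8 and 7 bases, shorter than a sequencing read. Over the whole transcripts they were 20, 27 and 20 bases. Where in the transcripts the reads lay is not known from the sources used here.

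The 250 bases before each RefSeq start are shown (GRCm38.p6, plus strand, chr8:94178839-94179088 for Mt1, chr8:94172368-94172617 for Mt2 and chr8:94152357-94152606 for Mt3). Within these windows the 3 genes differ in the number of matches to a metal response motif. Capitals mark the core of the metal response element, the site that MTF1 reads, searched as TGCACNC or TGCGCNC on both strands.
Mt1: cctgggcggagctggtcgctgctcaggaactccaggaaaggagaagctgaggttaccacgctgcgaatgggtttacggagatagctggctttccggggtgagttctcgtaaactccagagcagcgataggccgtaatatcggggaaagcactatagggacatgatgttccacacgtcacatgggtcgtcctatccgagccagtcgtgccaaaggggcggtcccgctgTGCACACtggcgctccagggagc
Mt2: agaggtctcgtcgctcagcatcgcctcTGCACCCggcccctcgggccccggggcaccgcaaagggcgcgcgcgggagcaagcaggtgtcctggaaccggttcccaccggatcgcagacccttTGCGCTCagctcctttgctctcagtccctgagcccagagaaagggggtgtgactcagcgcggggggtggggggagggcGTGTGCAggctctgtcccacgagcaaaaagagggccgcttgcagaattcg
Mt3: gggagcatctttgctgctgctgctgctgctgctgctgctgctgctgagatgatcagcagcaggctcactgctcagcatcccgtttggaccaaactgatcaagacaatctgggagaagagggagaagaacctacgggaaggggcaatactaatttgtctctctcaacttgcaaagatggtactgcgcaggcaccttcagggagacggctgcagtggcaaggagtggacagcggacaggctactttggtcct
Mt1 held 1 match, 23 to 17 bases before the start. Mt2 held 3, at 223 to 217, 128 to 122 and, on the other strand, 50 to 44 bases before the start. Mt3 held 0. These counts depend on the start used: the Mt1 window ends 7 bases inside the GENCODE gene, the Mt2 window 46 bases before it and the Mt3 window right before it. Of 32851 such windows over mouse genes, 21.4% held at least 1 match, 5.18% at least 2 and 1.26% at least 3. The core of the antioxidant response element (TGACNNNGC, either strand) had 1 match in Mt2, 79 to 71 bases before the start, and 0 in Mt1 and Mt3, and 10.2% of windows held one. A match in these letters is a description and not a measured site. Bases outside the windows were not searched, so the counts do not compare whole promoters.

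Some cells of different mice carried the same barcode. Of the kept cells, 91 shared a barcode with a cell of another mouse, over 32 barcodes, and 1 barcode stood in up to 8 mice. For 12 barcodes, 38 cells were low copies, with at least 5 times fewer UMIs (1545 to 5976) than the same barcode had in another mouse (23746 to 71043). Ctl F1, the smallest library, was touched most: shared barcodes gave 16.9% of its UMIs, 21.1% in its pericyte-like cells, 14.4% in its endothelial-like cells and 67.4% in its smooth muscle-like cells. The pericyte-like and endothelial-like differences between groups are given with and without these cells.

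Astrocyte-like cells stood far above the other large classes in all 3 genes. Mt1 averaged 10463 ± 2190 CPM, Mt2 3597 ± 647 CPM and Mt3 7084 ± 1193 CPM (SD, n = 6 mice with at least 10 cells). These 272 cells held 48.0% of all Mt3 UMIs of the dataset, 16% of Mt1 and 20.2% of Mt2. Mt1 in astrocyte-like cells was 11308, 9447 and 8397 CPM in Pb F1, Pb M1 and Pb M2, and 8985, 14428 and 10215 CPM in Ctl F1, Ctl F2 and Ctl M2. Ctl F2 was highest and the groups overlapped.

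The next class in the order of Mt1 was Cluster 1, 772 cells that carried endothelial markers but were led by hemoglobin genes and were left unnamed. Its Mt1 averaged 1908 ± 451 CPM (SD, n = 8). In the 6 mice with both classes the astrocyte-like level was higher by 2.52 on the log2(CPM + 5) scale (SD 0.36, higher in 6 of 6 mice, exact paired sign-flip test, two-sided p = 0.0312, the smallest that 6 mice allow, adjusted p = 0.119 over 19 neighbouring pairs). None of the 19 pairs passed an adjusted p of 0.05, and the smallest value was 0.119.

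Among the other classes present in all 8 mice, Mt1 lay at like levels. After Cluster 1 it averaged 1604 ± 259 CPM in microglia-like cells (brain macrophages), 1418 ± 346 CPM in oligodendrocyte-like cells, which make myelin, 1335 ± 408 CPM in pericyte-like cells, the contractile cells around capillaries, and 1278 ± 369 CPM in endothelial-like cells (SD, n = 8 each). From Cluster 1 down to endothelial-like cells, neighbours in this order differed by 0.06 to 0.23 log2, within the spread between mice (SD of the paired differences 0.18 to 0.45). Lower levels were found in Cluster 6 (957 ± 308 CPM, n = 6), oligodendrocyte-lineage cells led by Enpp6, Anln and Klk6, in smooth muscle-like cells (774 ± 252 CPM, n = 7) and in Cajal-Retzius-like cells (407 ± 155 CPM, n = 6), a class of early-born Reln-expressing neurons.

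Several small classes held much Mt1 in the few mice that had 10 of their cells. Perivascular macrophage-like cells, the macrophages along vessels, held 3173 CPM in Pb F1 and 5613 CPM in Pb M1. Fibroblast-like cells held 3503 CPM in Pb F1 and 2907 CPM in Pb M1. Ependymal-like cells, the ciliated lining of the ventricles, were measured in Ctl M2 alone, with 6122 CPM of Mt1, 2001 CPM of Mt2 and 5868 CPM of Mt3. Lymphocytes were at the low end: 35 UMIs in all T or NK cell-like cells (271 CPM) and 21 UMIs in all B cell-like cells (311 CPM).

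**Figure D1:**
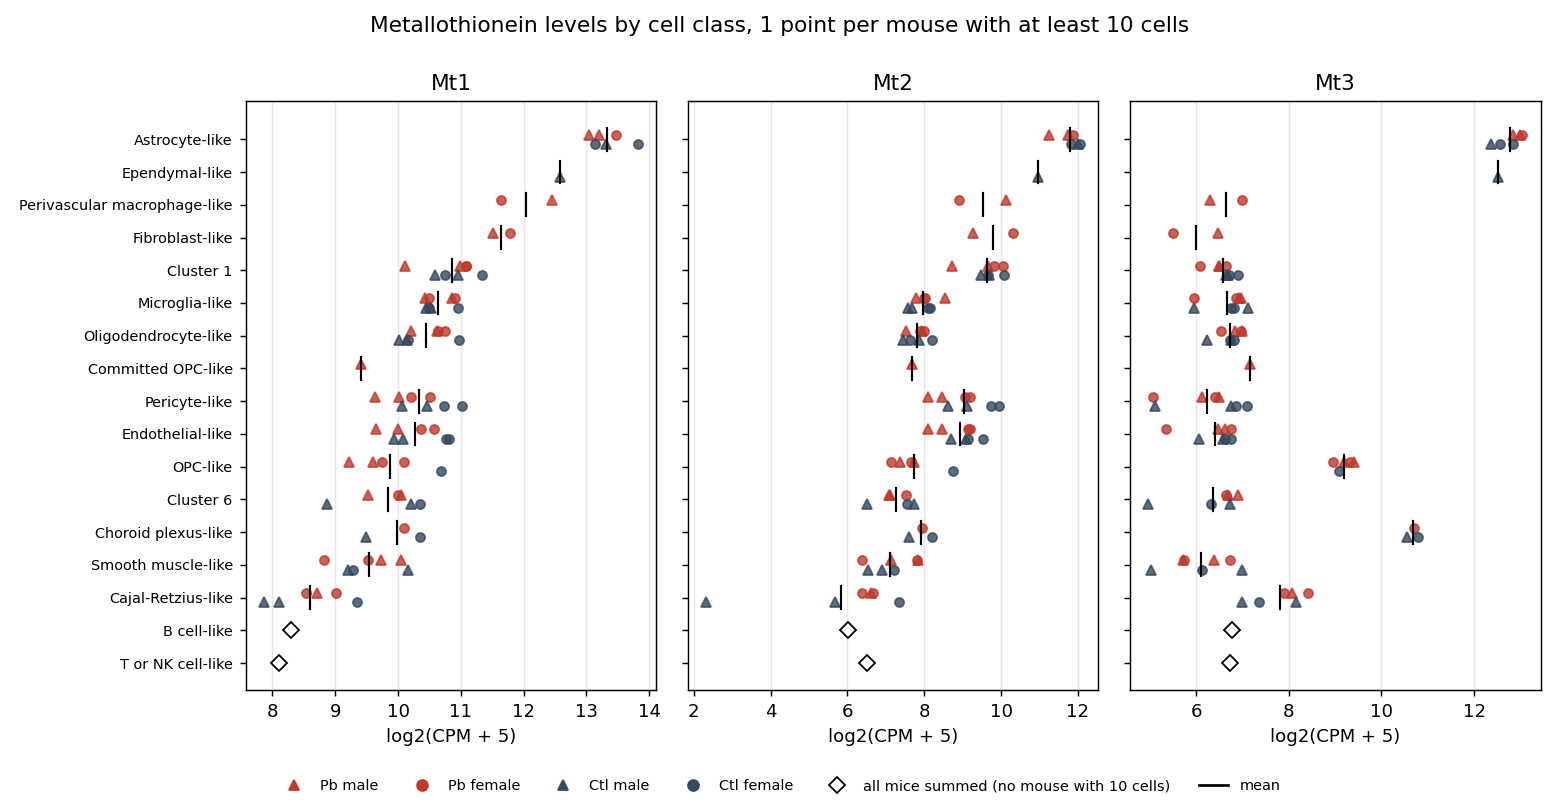
Level of Mt1, Mt2 and Mt3 as log2(CPM + 5) in each cell class, with 1 point per mouse that had at least 10 cells (red Pb, blue-grey Ctl, triangles males, circles females). The black bar is the mean, and the open diamond is the sum over all mice of a class where no mouse had 10 cells. Astrocyte-like cells lie highest in all 3 panels among classes with 3 or more mice, the single ependymal-like point (5868 CPM of Mt3) lying inside their Mt3 range. Choroid plexus-like and oligodendrocyte precursor-like cells follow in Mt3.

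Mt2 followed Mt1 at a lower level, but not by the same factor in every class. Its order after the astrocytes was Cluster 1 (823 ± 208 CPM), pericyte-like (563 ± 246 CPM), endothelial-like (501 ± 150 CPM), microglia-like (252 ± 57.3 CPM) and oligodendrocyte-like cells (223 ± 39.9 CPM; SD, n = 8 each). Endothelial-like cells stood above microglia-like cells by 0.95 log2 in 7 of 8 mice (SD 0.61, exact sign-flip p = 0.0156, adjusted p = 0.119). Pericyte-like and endothelial-like cells differed by 0.11 log2, less than the spread between mice (SD 0.25).

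Set against Mt1 in the same cells, Mt2 was high in endothelial-like, pericyte-like and astrocyte-like cells and Cluster 1, and low in microglia-like, oligodendrocyte-like and smooth muscle-like cells. There were 0.430 ± 0.0362 Mt2 UMIs per Mt1 UMI in Cluster 1, 0.410 ± 0.0800 in pericyte-like, 0.394 ± 0.0610 in endothelial-like (n = 8 each) and 0.347 ± 0.0508 in astrocyte-like cells (n = 6). The ratio was 0.157 ± 0.0262 in the microglia-like class, 0.160 ± 0.0186 in the oligodendrocyte-like class (n = 8 each), 0.164 ± 0.0259 in Cluster 6 (n = 6) and 0.190 ± 0.0656 in smooth muscle-like cells (SD, n = 7). The lowest mouse of the endothelial-like class (0.314) lay above the highest of the microglia-like class (0.199) and of the oligodendrocyte-like class (0.2003).

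Mt3 split the classes more sharply than Mt1 or Mt2. Besides the ependymal-like cells of the 1 mouse above, the class next to the astrocytes was that of choroid plexus-like cells, the epithelium that makes cerebrospinal fluid, with 1656 CPM in Pb F1, and 1771 and 1489 CPM in Ctl F2 and Ctl M2; their 95 cells held 21.0% of all Mt3 UMIs. Oligodendrocyte precursor-like cells followed, with 636, 492, 583 and 669 CPM in Pb F1, Pb F2, Pb M1 and Pb M2 and 539 CPM in Ctl F2. Cajal-Retzius-like cells averaged 233 ± 79.7 CPM (n = 6). They stood above oligodendrocyte-like cells by 1.10 log2 in 6 of 6 mice (SD 0.38, exact sign-flip p = 0.0312, adjusted p = 0.119).

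In the other tested classes Mt3 lay within a narrow band, 69.8 ± 32.9 CPM in smooth muscle-like (n = 7) to 103 ± 16.9 CPM in oligodendrocyte-like cells (n = 8), and neighbours differed by 0.02 to 0.18 log2. T or NK cell-like and B cell-like cells, which are not known to use this gene, lay in the same band, at 101 CPM (13 UMIs) and 104 CPM (7 UMIs). Each cell was also thinned to 1000 UMIs to compare shares at equal depth. A Mt3 UMI was then found in 99.8% of astrocyte-like, 73.0% of choroid plexus-like and 38.7% of oligodendrocyte precursor-like cells, but in 10.9% of microglia-like, 10.1% of oligodendrocyte-like, 9.22% of endothelial-like and 7.25% of pericyte-like cells. Unthinned, the shares were 49.4% in oligodendrocyte-like and 41.5% in microglia-like cells. With levels like those of the lymphocytes, which rest on few UMIs, no expression is read from these shares.

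Mt3 was also set against astrocyte transcripts in the same cells. Of 9 astrocyte markers summed, astrocyte-like cells held 24873 CPM and 0.286 ± 0.0530 Mt3 UMIs per marker UMI (n = 6). Endothelial-like, microglia-like and oligodendrocyte-like cells held 0.345 ± 0.107, 0.376 ± 0.0904 and 0.504 ± 0.117 Mt3 UMIs per astrocyte marker UMI (n = 8 each). The ratio was 0.668 ± 0.196 in oligodendrocyte precursor-like cells (n = 5, 0.408 to 0.907), which overlapped the oligodendrocyte-like mice (0.342 to 0.667) although their Mt3 level did not. It was 1.07 ± 0.410 in Cajal-Retzius-like (n = 6) and 11.5 ± 0.809 in choroid plexus-like cells (SD, n = 3). Mt1 per astrocyte marker UMI was 0.424 ± 0.0998 in astrocyte-like cells, against 6.23 ± 1.54 in microglia-like and 5.66 ± 2.34 in endothelial-like cells.

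Mt3 per Mt1 therefore differed over the classes by more than 10 times. It was 1.66 ± 0.378 in choroid plexus-like (n = 3), 0.695 ± 0.159 in astrocyte-like (n = 6), 0.675 ± 0.295 in oligodendrocyte precursor-like (n = 5) and 0.624 ± 0.255 in Cajal-Retzius-like cells (n = 6). It was 0.0633 ± 0.0188 in microglia-like and 0.0511 ± 0.0161 in Cluster 1 (SD, n = 8 each), where Mt3 is at the level of the lymphocytes.

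**Figure D2:**
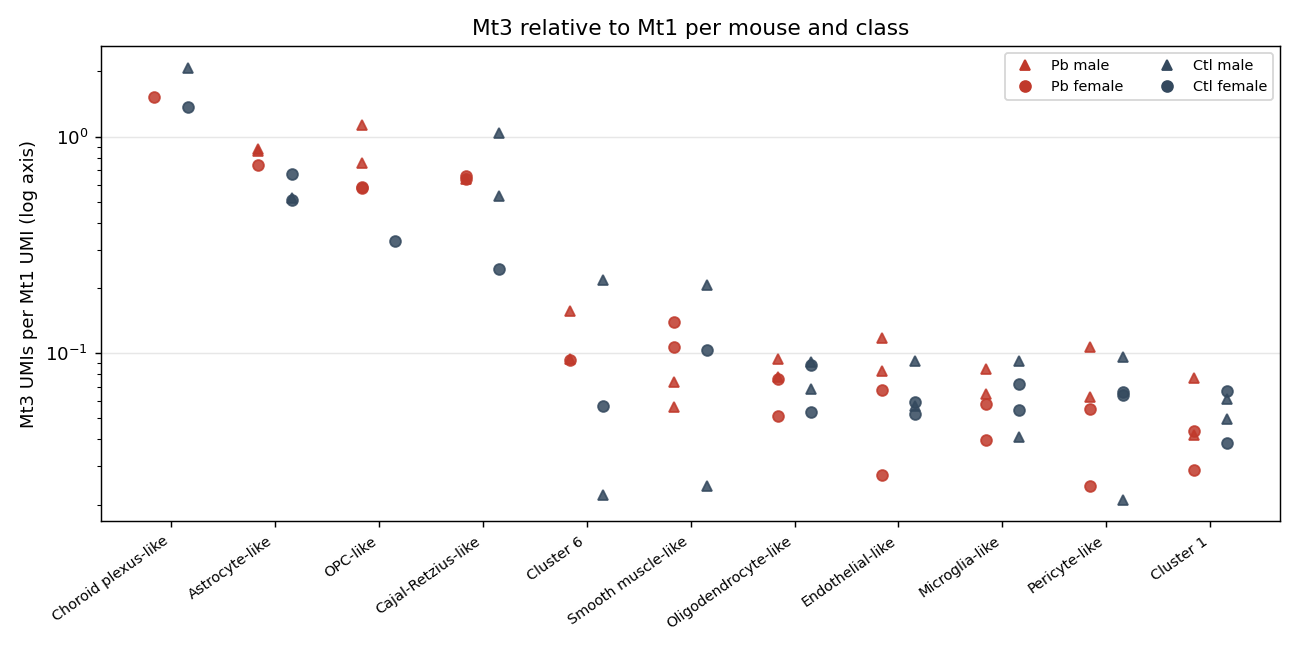
Mt3 UMIs per Mt1 UMI on a log axis, with 1 point per mouse and class (at least 10 cells), for classes with 3 or more mice; red is Pb, blue-grey is Ctl, triangles are males and circles females. Choroid plexus-like cells have more Mt3 than Mt1 in all 3 mice (1.37 to 2.08), astrocyte-like cells range from 0.510 to 0.876, and the vascular, microglial and oligodendrocyte classes lie lower.

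Classes were not uniform inside. Among the 4 microglia-like clusters, Mt1 averaged 1953 ± 380 CPM in the one led by Il1a and Tnf (n = 8) and 745 ± 212 CPM in the one led by P2ry12 and Cx3cr1, genes of resting microglia (n = 7); the others held 1242 ± 285 CPM (n = 8) and 1988 ± 242 CPM (n = 7). Mt3 in these clusters was 91.5 to 109 CPM. In pericyte-like cells, the larger cluster, which also carried endothelial markers, held 626 ± 268 CPM of Mt2 (n = 8) and the smaller one 177 ± 189 CPM (n = 4). Of the 79 oligodendrocyte-like cells of Ctl M2, 69 formed a cluster found in no other mouse. That cluster held 1128 CPM of Mt1, 224 CPM of Mt2 and 104 CPM of Mt3. These are descriptions, since the clusters were made from the same cells. From cell to cell, Mt1 ranged 13.2-fold between the 10th and 90th percentile of microglia-like cells and 3.62-fold among astrocyte-like cells.

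Among the large classes, Mt1 and Mt2 went together from cell to cell most in pericyte-like, endothelial-like and astrocyte-like cells and Cluster 1. Of these large classes, Mt3 went with Mt1 in the astrocyte-like class only. The median over mice of the Spearman correlation between cells for Mt1 and Mt2 was 0.74 in pericyte-like (5 mice), 0.65 in endothelial-like (7 mice), 0.61 in Cluster 1 (8 mice) and 0.59 in astrocyte-like cells (4 mice), each mouse having at least 30 cells. It was 0.32 in the microglia-like class and 0.27 in the oligodendrocyte-like class (8 mice each), where Mt2 counts are low. Smooth muscle-like cells had 0.26 in 1 mouse. For Mt1 and Mt3 it was 0.43 in astrocyte-like cells and 0.00 to 0.06 in the 5 other large classes, where Mt3 lay in the narrow band above. In smaller classes it was 0.28 in choroid plexus-like (2 mice), 0.22 in Cajal-Retzius-like (1 mouse) and 0.11 in Cluster 6 cells (3 mice). It was -0.01 in oligodendrocyte precursor-like (2 mice) and -0.14 in smooth muscle-like cells (1 mouse). Cells of a mouse share a library and low counts weaken a correlation, so these are given without a p-value.

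The genes most like each member were ranked by the Pearson correlation of log2(CPM + 5). Over the means of 9 classes (6680 genes), Mt1 was most like Crot (0.97), Rnf121 (0.95), Zcchc7 (0.94), Gfap (0.94) and Mt2 (0.94), and Mt2 most like Por (0.96), Tmc7 (0.94), Mt1 (0.94), Crot (0.93) and 1700019G17Rik (0.92). Mt3 was most like Igdcc4, Sfxn5, Btbd17, Fabp7, a fatty acid binding protein of astrocytes, and Gldc, an enzyme of glycine breakdown (0.99 to 1.00). With Mt1, Mt3 reached 0.75 and rank 310.
All of these genes were highest in the astrocyte-like class, so 1 class carries much of each value. Over mice within classes (65 points, each relative to its class mean, 3628 genes), Mt1 was most like Mt2 (0.67), Sgk1, a kinase gene that glucocorticoids induce (0.58), Pcif1 (0.54), Cs, the citrate synthase gene (0.54), and Nfkbia, the NF-kB inhibitor gene (0.52). Mt2 was most like Dram2 (0.75), Cyth1 (0.70), Mt1 (0.67), Ddx3x (0.64) and Gamt (0.64), and Mt3 like Gpm6a (0.69), Snhg20 (0.63), Slc6a11, a GABA transporter of astrocytes (0.61), Gm3764 (0.59) and Tmem47 (0.58). Mt1 and Mt3 gave 0.01. Points of the same mouse share a library, and no p-value is given.

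Lead exposure was not followed by a metallothionein difference that passed the threshold in any class. UMIs were summed per mouse and class and tested with edgeR's quasi-likelihood test with sex as a covariate, adjusted over all genes of a class (Benjamini-Hochberg). Of 29 member tests (all cells together and 9 classes, Mt2 in Cajal-Retzius-like cells being too low to test), 0 had an adjusted p under 0.05, and 5 had an unadjusted p under 0.05. At that unadjusted threshold stood 2759 of 59223 tests over all genes and classes, 4.66%; the member tests share mice, and Mt1 and Mt2 go together, so they are not 29 independent tests. After adjustment, 2 of all 59223 tests passed, or 0.00338%, so the members' count and the background are both near 0. limma-voom and DESeq2 also called 0 members. Of the fold changes, 11 were above 0 and 18 below, with a median of -0.07.

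The smallest p was that of Mt2 in pericyte-like cells, and Mt2 was lower in Pb mice. This class also carried endothelial markers. Mt2 was 577, 533, 268 and 347 CPM in Pb F1, Pb F2, Pb M1 and Pb M2, against 985, 848, 551 and 391 CPM in Ctl F1, Ctl F2, Ctl M1 and Ctl M2. The groups overlapped, and in each sex the Pb mice lay below the Ctl mice. The means were 431 ± 148 CPM in Pb and 694 ± 271 CPM in Ctl (SD, n = 4 each), a log2 fold change of -0.69 (SE 0.15, adjusted p = 0.519 with edgeR). Without cells of shared barcodes, Ctl F1 had 487 CPM, below Pb F1 and Pb F2, and the log2 fold change was -0.51 (adjusted p = 1.00).

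Mt1 pointed the same way in pericyte-like cells without passing the test. It was 1454, 1176, 789 and 1031 CPM in Pb F1, Pb F2, Pb M1 and Pb M2, and 1688, 2065, 1407 and 1066 CPM in Ctl F1, Ctl F2, Ctl M1 and Ctl M2 (log2 fold change -0.49, SE 0.15, edgeR adjusted p = 0.936). Without cells of shared barcodes Ctl F1 had 1153 CPM, below Pb F1 and Pb F2, and the value was -0.41 (adjusted p = 1.00). In endothelial-like cells the log2 fold changes were -0.27 (SE 0.12) for Mt1 and -0.42 (SE 0.15) for Mt2 (edgeR adjusted p = 1.00 and 0.960), and without shared barcodes -0.30 and -0.47 (adjusted p = 0.993 and 0.908). In Cluster 1 they were -0.09 (SE 0.16) and -0.15 (SE 0.17). In microglia-like cells they were 0.09 (SE 0.15) and 0.25 (SE 0.18), and in oligodendrocyte-like cells 0.19 (SE 0.15) and 0.00 (SE 0.15), each within 2 SE of 0. Without the oligodendrocyte-like cluster found only in Ctl M2, 0 of 29 member tests passed. These tests use the same mice, so the classes are not independent of each other.

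In astrocyte-like cells Mt3 and the other pair lay on opposite sides of 0. Mt3 was 8364, 8104 and 7352 CPM in Pb F1, Pb M1 and Pb M2, against 6018, 7355 and 5309 CPM in Ctl F1, Ctl F2 and Ctl M2. The lowest Pb mouse lay just under the highest Ctl mouse. The means were 7940 ± 525 CPM in Pb and 6227 ± 1039 CPM in Ctl (SD, n = 3 each), a log2 fold change of 0.40 (SE 0.19, edgeR adjusted p = 0.830). Mt1 had a log2 fold change of -0.16 (SE 0.20) and Mt2 of -0.31 (SE 0.21).

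Within the same cells, Mt3 per Mt1 did not overlap between the groups. It was 0.740, 0.858 and 0.876 in Pb F1, Pb M1 and Pb M2, and 0.670, 0.510 and 0.520 in Ctl F1, Ctl F2 and Ctl M2. The mean log2 ratio was higher by 0.55 in Pb (exact permutation test, two-sided p = 0.10, the lowest possible with 3 mice a side, adjusted p = 0.905 over 19 ratio tests). Pb F2 and Ctl M1 had 9 astrocyte-like cells each and were left out. Over all cells, Mt3 ran from 167 to 506 CPM in Pb and from 161 to 703 CPM in Ctl mice. The lowest values were those of Pb F2 and Ctl M1. From such sums alone, fewer cells of a type and less RNA per cell cannot be told apart. Choroid plexus-like cells numbered 46 in Ctl M2, the mouse with 703 CPM, 38 in Pb F1, 10 in Ctl F2 and 1 in Pb M1. Pb F2, Pb M2, Ctl F1 and Ctl M1 had 0 of them. The part of these cell numbers in the sums was not tested.

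In Cluster 1, Mt3 did not overlap between the groups, with 94.4, 63.2, 84.5 and 84.9 CPM in Pb F1, Pb F2, Pb M1 and Pb M2, and 115, 99.4, 98.4 and 94.7 CPM in Ctl F1, Ctl F2, Ctl M1 and Ctl M2. The gap between the nearest mice was under 1 CPM, at a level near that of the lymphocytes (log2 fold change -0.30, SE 0.17, edgeR adjusted p = 1.00). Over 10 units, Pb and Ctl mice did not overlap in 1 for Mt3, 0 for Mt1 and 0 for Mt2. Of the 70 arrangements of 4 against 4 mice, a share of 0.0286 separates the groups. The share over all genes was not counted, so nothing is read from this separation.

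**Figure D3:**
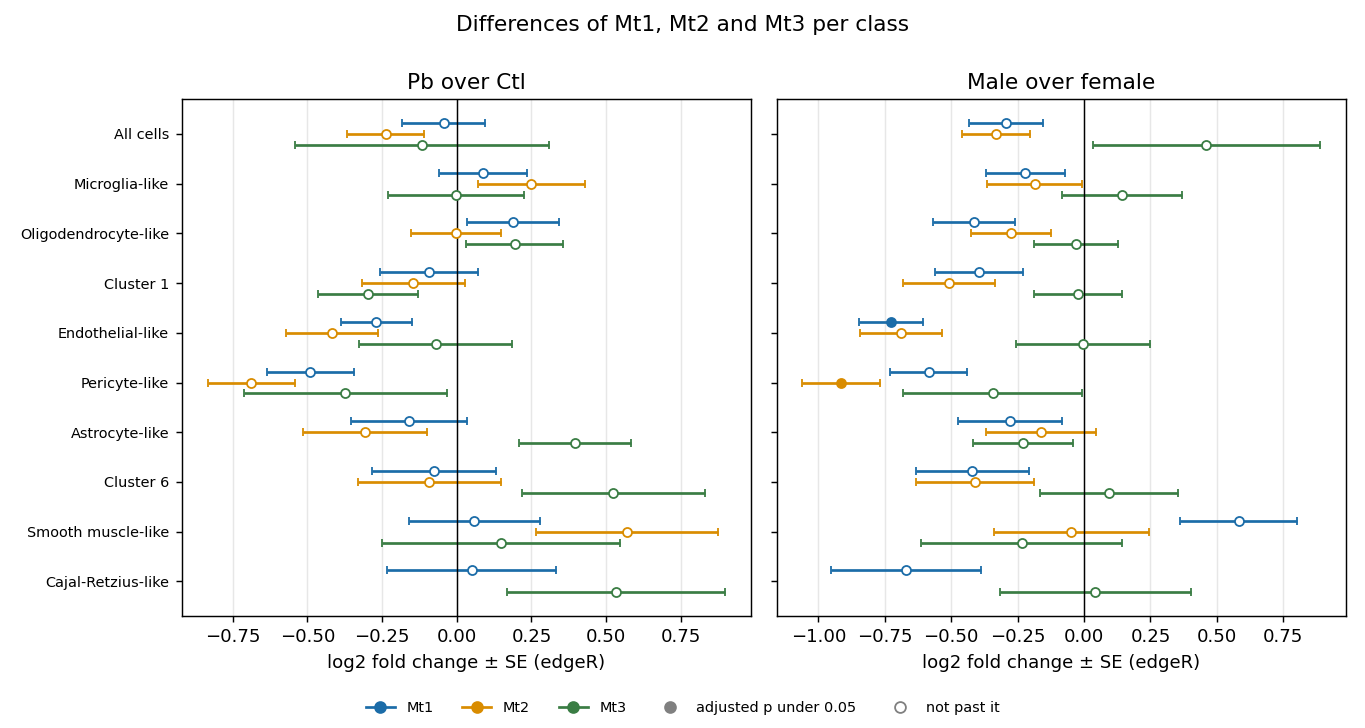
log2 fold changes of Mt1 (blue), Mt2 (orange) and Mt3 (green) with their SE from edgeR, Pb over Ctl on the left and male over female on the right, for all cells and each tested class; filled points have an adjusted p under 0.05. No point on the left is filled; on the right, Mt1 in endothelial-like and Mt2 in pericyte-like cells are, and most of Mt1 and Mt2 lie below 0.

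Sex was the other factor of the design. Mt1 and Mt2 each fell in 1 vessel class of males, and neither passed in Cluster 1, which also carried endothelial markers. Of 29 member tests of male against female, 2 passed, both lower in males, and 10 had an unadjusted p under 0.05. Over all genes 53 of 59223 tests passed, or 0.0895%, and 2719 had an unadjusted p under 0.05, 4.59%. The 53 were in many cases Xist, Tsix and Y-linked genes. limma-voom called 2 and DESeq2 2. Of the fold changes, 24 were below 0 and 5 above, with a median of -0.27.

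Mt1 fell in endothelial-like cells of males. It was 797, 1021, 1075 and 976 CPM in Pb M1, Pb M2, Ctl M1 and Ctl M2, and 1515, 1318, 1732 and 1788 CPM in Pb F1, Pb F2, Ctl F1 and Ctl F2, with every male below every female. The means were 967 ± 120 CPM in males and 1588 ± 215 CPM in females (SD, n = 4 each), a log2 fold change of -0.73 (SE 0.12, edgeR adjusted p = 0.0179). In this class 5 of 6424 genes passed, 0.0778%; the others were Xist, Tsix, Ddx3y and Vegfc, a vessel growth factor (log2 fold change 1.42). Without shared barcodes the value was -0.75 (adjusted p = 0.0156). It lost the threshold without Pb F1, Pb M1, Ctl F2 or Ctl M1 (adjusted p = 0.0880, 0.209, 0.0547 and 0.0582), with log2 fold changes of -0.82 to -0.67 over all mice left out.

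Mt2 in the same cells did not overlap between the sexes either. It was 271, 348, 535 and 411 CPM in Pb M1, Pb M2, Ctl M1 and Ctl M2, and 579, 563, 741 and 561 CPM in Pb F1, Pb F2, Ctl F1 and Ctl F2. The log2 fold change was -0.69 (SE 0.15, edgeR adjusted p = 0.154), and -0.72 without shared barcodes (adjusted p = 0.136). Over 10 units, the sexes did not overlap in 1 for Mt1, 1 for Mt2 and 0 for Mt3. The share over all genes was not counted, so nothing is read from these separations.

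Mt2 fell in the pericyte-like class of males, whose cells also carried endothelial markers (values below). It averaged 389 ± 119 CPM in males and 736 ± 217 CPM in females (SD, n = 4 each), a log2 fold change of -0.91 (SE 0.15, edgeR adjusted p = 0.00852), and Ctl M1 (551 CPM) overlapped Pb F2 (533 CPM). In this class 6 of 5528 genes passed, 0.109%; the others were Xist, Tsix, Ddx3y, Eif2s3y and Net1, which codes for an exchange factor of small GTPases (log2 fold change -1.30). Without cells of shared barcodes, which take Ctl F1 to 487 CPM, the value was -0.69 and did not pass (adjusted p = 0.731). It also did not pass without Pb F1 (adjusted p = 0.0582) or Pb M1 (adjusted p = 0.0994). Mt1 had a log2 fold change of -0.58 (SE 0.15, edgeR adjusted p = 0.419), and -0.47 without shared barcodes (adjusted p = 0.967).

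**Figure D4:**
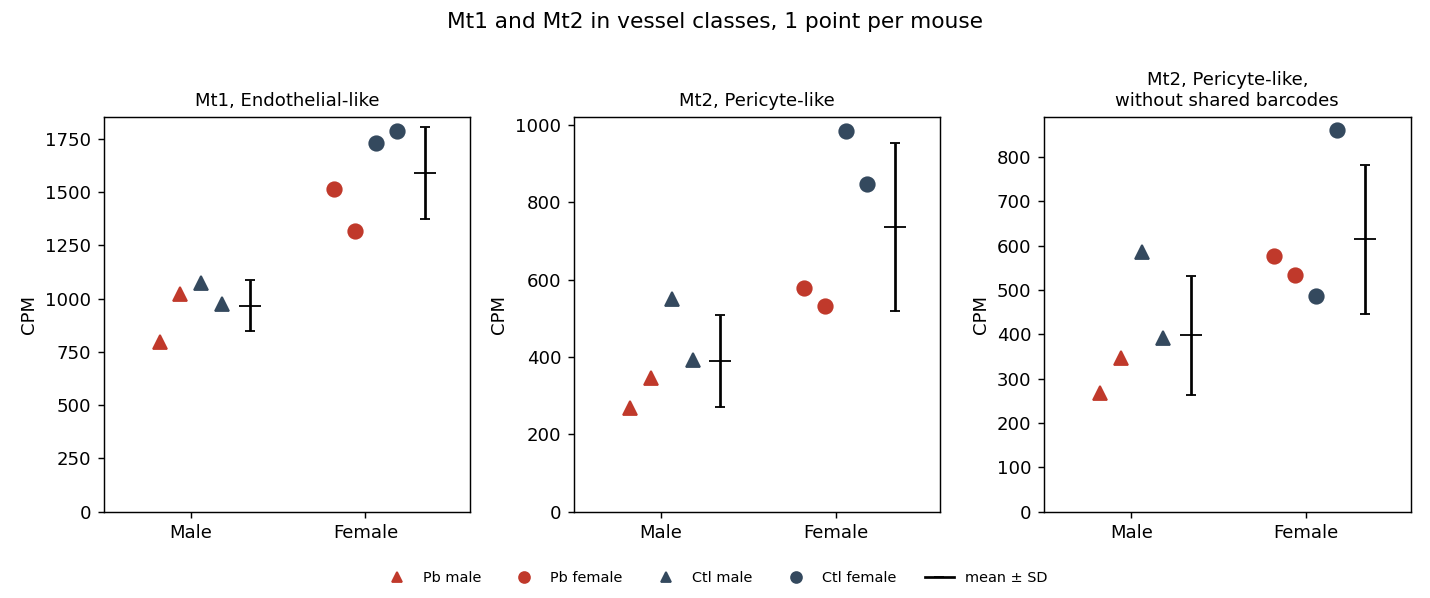
CPM per mouse in males (triangles) and females (circles) of Pb (red) and Ctl (blue-grey), with mean and SD (n = 4 per sex), for Mt1 in endothelial-like cells, Mt2 in pericyte-like cells, and Mt2 in pericyte-like cells without shared barcodes. Endothelial Mt1 separates the sexes (797 to 1075 CPM in males, 1318 to 1788 CPM in females), and the female Ctl F1 has 487 CPM in the last panel, against 985 CPM with all cells.

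Other signs of these cells were read beside the sex difference. The summed heat and immediate early genes of a dissociation list were 22582 to 27287 CPM in male and 25592 to 31084 CPM in female endothelial-like cells, and 14278 to 29657 CPM in male and 24075 to 29238 CPM in female pericyte-like cells. Endothelial markers in pericyte-like cells were 10518 to 14070 CPM in males and 12354 to 13909 CPM in females, with all 9 markers detected in every mouse. Endothelial-like cells held 17873 to 21013 CPM of them. Pericyte markers in pericyte-like cells were 9459 to 14072 CPM in males and 8749 to 10600 CPM in females. The pericyte-like levels are therefore those of a class with both marker sets. The part of these signs in the metallothionein difference was not tested.

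Elsewhere the sex difference of Mt1 had the same sign in most classes without passing the test. The log2 fold change of Mt1 was -0.39 (SE 0.16) in Cluster 1, -0.41 (SE 0.15) in oligodendrocyte-like, -0.22 (SE 0.15) in microglia-like, -0.28 (SE 0.20) in astrocyte-like and -0.67 (SE 0.28) in Cajal-Retzius-like cells. Cluster 1 also carried endothelial markers, 19501 to 23370 CPM against 17873 to 21013 CPM in endothelial-like cells. Its Mt1 overlapped between the sexes (1099 to 2022 CPM in males, 1717 to 2574 CPM in females). Smooth muscle-like cells went the other way: Mt1 was 1055, 845, 1135 and 587 CPM in Pb M1, Pb M2, Ctl M1 and Ctl M2, and 732, 449 and 618 CPM in Pb F1, Pb F2 and Ctl F1 (log2 fold change 0.58, SE 0.22, edgeR adjusted p = 0.410). Without shared barcodes Ctl F1 had 425 CPM, and the class was then not tested. Whether the classes differ in their sex difference was tested for 16 pairs by exact permutation of sex over mice. Each pair set Mt1 in endothelial-like or Mt2 in pericyte-like cells, the tests that had passed, against another class. The choice therefore rests on the same data. Some pairs had 3 against 3 or 4 against 2 mice, too few for a small p, so the pairs do not decide the question. The smallest p was that of Mt1 in endothelial-like against microglia-like cells (-0.56 log2, exact p = 0.0286, the lowest possible with 4 mice a side), and none passed (smallest adjusted p = 0.366). For Mt3, all-cell values gave 0.46 (SE 0.43) and the other fold changes lay between -0.34 and 0.14.

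An interaction of exposure and sex, the difference of the Pb effect in males minus that in females, was not found for the members. Of 29 tests 0 passed with edgeR (smallest adjusted p = 0.998, 2 with an unadjusted p under 0.05), against 6 of 59223, 0.0101%, over all genes, of which 3.33% had an unadjusted p under 0.05. Each combination of exposure and sex held 2 mice.

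Genes that act beside the metallothioneins were read from lists. Of the zinc exporters (Slc30 family, 31 tests over 9 of the units), 0 passed for Pb against Ctl, 8 being above 0 and 23 below. Slc30a1, an exporter that MTF1 also induces, had the smallest p, in Cluster 1 (log2 fold change -0.39, SE 0.13, edgeR adjusted p = 1.00). Of the zinc importers (Slc39 family, 52 tests) 0 passed, 17 above 0 and 35 below, with Slc39a1 in endothelial-like cells at -0.90 (SE 0.21, edgeR adjusted p = 0.476). Mtf1 itself was tested in 6 units, with 5 values above 0, 1 below and 0 past the test. Of the NRF2 targets, antioxidant genes that share stimuli with Mt1, 0 of 56 tests passed (30 above 0, 26 below), and of the copper handling genes 0 of 51 (24 above, 27 below). The medians of all genes lay between -0.02 and 0.00 in these fits.

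The dissociation list gave the 2 calls of the exposure contrast. Fosb (log2 fold change -1.28, adjusted p = 0.0154) and Fos (-0.84, adjusted p = 0.0231), immediate early genes, fell in Cluster 6 of Pb mice (edgeR), where 2 of 4513 genes passed, 0.0443%. Fos overlapped between the groups, with 1868 CPM in Pb M1 and 1667 CPM in Ctl F2. The only females tested in this cluster were Pb F1 and Ctl F2. Fos (0.94, adjusted p = 0.00649) and Egr1 (1.05, adjusted p = 0.00748) were also called there as higher in males (edgeR). Of 110 tests of this list 29 were above 0 and 81 below. In the same cluster the metallothioneins had log2 fold changes of -0.08 (SE 0.21) for Mt1, -0.09 (SE 0.24) for Mt2 and 0.52 (SE 0.30) for Mt3.

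The list of the glucocorticoid receptor and its targets leaned the way Mt1 and Mt2 did between the sexes. Of 103 tests over 10 units, 88 were below 0 in males and 15 above, with 1 call, and the median of the list was below 0 in 10 of 10 units, from -0.49 to -0.12, while the medians of all genes ran from -0.01 to 0.02. The call was Sgk1 in Cluster 6, which was 326, 301, 489 and 333 CPM in Pb M1, Pb M2, Ctl M1 and Ctl M2, and 1136 and 1156 CPM in Pb F1 and Ctl F2 (log2 fold change -1.70, SE 0.15, edgeR adjusted p = 2.3e-07). In oligodendrocyte-like cells Sgk1 was 521, 531, 697 and 338 CPM in Pb M1, Pb M2, Ctl M1 and Ctl M2, and 1430, 1406, 542 and 1420 CPM in Pb F1, Pb F2, Ctl F1 and Ctl F2 (log2 fold change -1.22, adjusted p = 0.167); Ctl F1 lay among the males. In the 10 units its log2 fold change ran from -1.70 to -0.40. For Pb against Ctl the list had 60 values above 0 and 43 below, with 0 calls. The genes of a list and the units share mice, and nothing particular to the list is read from these counts.

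**Figure D5:**
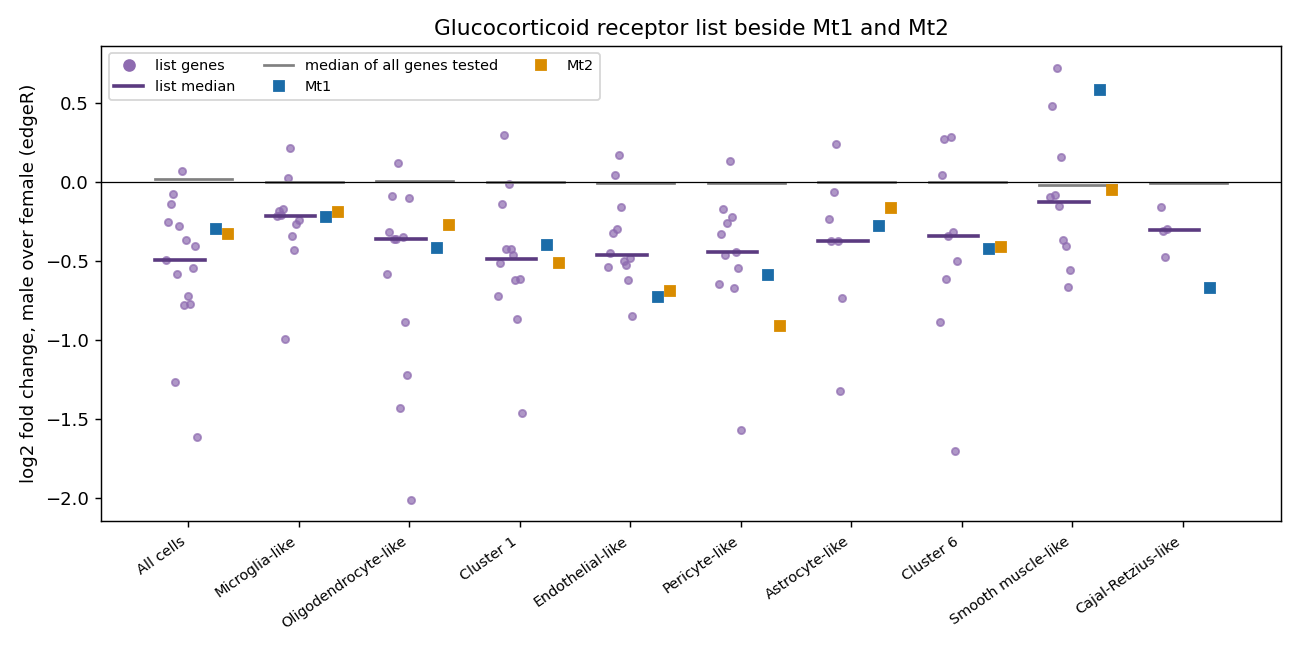
log2 fold changes of male over female (edgeR) for all cells and each tested class: violet points are genes of the glucocorticoid receptor list, the violet bar is their median, the grey bar the median of all genes tested, and blue and orange squares are Mt1 and Mt2. The list median lies below 0 in 10 of 10 units, and Mt1 lies below 0 in every unit but smooth muscle-like cells (0.58).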

How the data were processed

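Per the labels' protocols, dissociated, frozen and thawed hippocampal cells of 8 mice were run on a 10x Chromium. The deposited table gives raw UMI counts, whole numbers with a different total per mouse. The submitters' processing notes list Cell Ranger, Seurat and mm10, without versions; which annotation and filters were used is not stated in the sources at hand. The prefix of a cell's name gave its mouse, and 0 columns were left over. Every deposited cell had at least 999 genes and 1137 UMIs, and every gene was in at least 3 cells.

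Cells with over 20% mitochondrial UMIs (53) and doublets called per mouse by Scrublet (33 called, 0.628%, of which 30 remained and were removed) were left out. Clustering used scanpy 1.11.5 (2000 variable genes without Mt1, Mt2, Mt3, sex-linked and mitochondrial genes, 30 components, 15 neighbours, Leiden resolution 1.0, no integration). Classes were named from marker sets, with thresholds set after the data were seen: at least 3 markers detected in 10% of cells and a lead of 0.5 log2 over the next set. Cluster 1, where hemoglobin genes led, was left unnamed. Cluster 6 met these thresholds for the oligodendrocyte set, with 8 markers detected, but was also left unnamed. Its top 10 genes held 0 markers of that set and 1 of another. Classes with at least 10 cells in at least 3 mice of each group were tested, which left out 8 classes.

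For each mouse and class, UMI counts were added up. edgeR 4.0.16 (R 4.3.3; TMM, filterByExpr, quasi-likelihood test, sex as covariate) gave fold changes, with Benjamini-Hochberg adjustment within a class. limma 3.58.1, DESeq2 1.42.0, other filters and clusterings, leaving out each mouse and leaving out shared barcodes were alternatives. Levels of neighbouring classes were compared with exact sign-flip tests within mice, on log2(CPM + 5). The Pb against Ctl fit was tested on simulated data in which 200 randomly drawn genes were changed 2-fold in Pb mice. It recovered 55.5% of them in all cells, 59.5% in microglia-like and 45.5% in astrocyte-like cells, with 9, 5 and 4 false calls. A change of that size can therefore go uncalled for a gene drawn at random. The recovery of Mt1, Mt2 and Mt3 themselves was not simulated. Promoters are from RefSeq (GRCm38.p6), and gene positions from GENCODE vM21 (GRCm38) by symbol; both are the build the notes name (mm10), and all 3 genes matched. The genes named as most alike are the 5 with the highest correlation per member. Members and lists were chosen with earlier results of these data known.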

Additional observations from a re-analysis of the deposited data

Results flagged for a closer look

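In groups of 4 mice, a mouse was picked out when its gap to the nearest of the others, divided by the range, was above Dixon's 95% critical value. Of 42 groups looked at, 5 had such a mouse; chance gives about 1 in 20. Mt1 in Ctl F2 was high in both glial classes: 1972 CPM in microglia-like cells, where the other Ctl mice had 1386 to 1464 CPM, and 1999.7 CPM in oligodendrocyte-like cells, where they had 1033 to 1145 CPM. Mt1 in Cluster 1 was low in Pb M1, with 1099 CPM against 2022 to 2175 CPM in the other Pb mice. Mt3 was low in Pb F2 in microglia-like cells (56.9 CPM, the other Pb mice having 112 to 120 CPM) and in Ctl M1 in oligodendrocyte-like cells (70.8 CPM, the other Ctl mice having 101 to 107 CPM). Both mice had 9 astrocyte-like cells, the fewest, and the part of this in their Mt3 level was not tested.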

How the results depend on the processing

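For Pb against Ctl, 0 of 29 member tests passed in the reported fit and in all alternatives but the one with no low-count filter, which called 1 (Mt2 in pericyte-like cells, log2 fold change -0.64, adjusted p = 0.0388). Over 304 alternatives of the 15 tests beyond their SE, 302 kept direction and side of the threshold; the reversed one was Mt3 in oligodendrocyte-like cells with equal cells per mouse (-0.047). For sex the count of 2 became 4 with no low-count filter, 1 with no covariate, 1 at Leiden resolution 0.5, 1 without shared barcodes, 1 with equal cells per mouse, and 0 to 2 with each mouse left out. Mt1 in endothelial-like cells was -0.73 with equal cells per mouse and -0.82 to -0.67 with a mouse left out. Mt2 in pericyte-like cells was -0.94 with no covariate, -0.80 at Leiden resolution 0.5, -0.69 without shared barcodes and -1.01 to -0.82 with a mouse left out. Mt3 for male against female turned sign with a mouse left out in all cells (-0.0769 to 0.751) and in pericyte-like cells (-0.621 to 0.0668). All 14 exposure tests and all 9 sex tests within 1 SE of 0 changed sign in some alternative. The cause of these changes was not tested.

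Mean levels moved by less than the SD between mice in 461 of 462 alternatives, the exception being Mt2 in smooth muscle-like cells with at least 20 cells per mouse (223 CPM). Shares of cells without thinning moved in 31 of 33 values. The order test of the astrocytes had no value with at least 20 cells per mouse, and smooth muscle-like cells were not tested without shared barcodes, without low copies, with doublets kept, with cells over 10% mitochondrial UMIs removed or at Leiden resolution 0.5. The interaction was run in 1 setting.

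Groups share replicate numbers in the labels. Deviations of same-numbered mice from their group means, over all cells, correlated at -0.65 to 0.09, and 0 of 8 mice correlated best with their own number, so the numbers were not taken as pairs. With a replicate block 0 member tests passed; Mt2 in pericyte-like cells was -0.69 (adjusted p = 0.866) and Mt3 in astrocyte-like cells 0.45. Sex could not be fitted with the block, since numbers differ between the sexes. Depth limits the level of Mt3 in lymphocytes, which rests on 13 and 7 UMIs, and Mt2 in Cajal-Retzius-like cells (0 to 158 CPM) was too low to test.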

Other observations

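A cluster of 17 astrocyte-like cells led by Myoc and Gfap, the gene of the intermediate filament of reactive and fibrous astrocytes, had at least 10 cells in 1 mouse. There it held 12685 CPM of Mt1, 5225 CPM of Mt2 and 10350 CPM of Mt3. The 255 other astrocyte-like cells, led by glutamate and GABA transporter genes, held 10139 ± 2363, 3497 ± 738 and 6864 ± 1226 CPM of the same genes (SD, n = 6). With 1 mouse the difference has no replicate check.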
